A study of Mus musculus with 4 samples.

Results

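The genes described here encode the large glycoproteins of the basement membrane: the laminin chains Lama2, Lama3, Lama4, Lama5, Lamb1, Lamb2 and Lamc1, the nidogens Nid1 and Nid2, and perlecan, Hspg2. They were taken by symbol, without regard to their values, and all 10 were listed in each of the 4 single-cell expression tables, which together list 20674 genes. They were followed across the cell classes of the fetal mouse lung (C57BL/6). Whole-lung live cells came from 3 wild-type embryos at E17.5, and 1 further sample held cells sorted from a single E16.5 lung that carried αSMA-GFP, Tbx4-Cre and Rosa26-tdTomato. The sort took cells of the Tbx4 lineage, marked by tdTomato once Tbx4-Cre has acted, that also expressed αSMA, marked by GFP, so it covers a chosen share of the mesenchyme. The 3 E17.5 lungs served as replicates. The labels do not say whether they shared a litter, so the p-values speak for these 3 lungs only. The p-values and SEs draw partly on a variance shared over the genes tested, and not only on each gene's own spread. The sort has no replicate and differs from the lungs in stage, genotype, gate and library at once, so these cannot be told apart.

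Basement membranes are thin sheets of matrix under epithelia and endothelia and around muscle cells and pericytes. Laminin is secreted as a trimer of an α, a β and a γ chain and is named after the numbers of its chains, here written as LM followed by the α, β and γ numbers. The short arms of the trimer polymerise into a network on the cell surface, the C-terminal globular domains of the α chain bind integrins and dystroglycan, nidogens bridge laminin to type IV collagen, and perlecan, a heparan sulfate proteoglycan, binds the network and holds growth factors. The α chain therefore sets which receptors a trimer can meet. In the fetal lung the sheet between the alveolar epithelium and the capillaries thins as air sacs form.

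The E17.5 lungs held 2682, 2140 and 2657 cell barcodes, with a median of 7979, 8493.5 and 7201 unique molecules (UMIs) per cell, and the E16.5 sort held 3085 barcodes with a median of 12007. Any pair of samples shared between 7 and 13 barcodes. Cells were clustered on a set of genes that left out the 10 members and every gene tested below, and clusters were named from marker lists. Levels are given in CPM, a gene's UMIs scaled to the same total in every cell and averaged over the cells of a class in a lung, as the mean ± SD over 3 lungs. A class whose name ends in "-like" matches the markers of that cell type. The 11 classes with at least 20 cells in every lung were alveolar type 1-like (AT1-like, 807 cells), alveolar type 2-like (AT2-like, 813), airway-like (109), arterial-like (103), capillary plexus-like (944), matrix fibroblast-like (1061), Hhip-Ednrb myofibroblast-like (472), Agtr2-Penk-Dpep1-like (66, 73 and 72 in the 3 lungs), pericyte-like (195), macrophage or monocyte-like (1891) and MHC class II-like (204). The Agtr2-Penk-Dpep1-like class also held smooth muscle markers, 8 of 9 at 20 CPM or more, with a summed level of 3791 to 5926 CPM over the lungs, and the myofibroblast-like class held 9 of 9, at 5100 to 6415 CPM. Arterial-like cells numbered only 31 to 41 per lung, and airway-like cells 27 to 43.

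Free RNA can give UMIs in cells that do not express a gene. The surfactant gene Sftpc, which only epithelial cells should make, averaged 49964 CPM in the epithelium and sat at 3.49% to 4.02% of that level in all 8 other classes. Immune cells, taken to lay down no basement membrane of their own, served as the comparison. There the members' levels ran from 0.651 ± 0.416 CPM for Lama2 to 10.1 ± 2.89 CPM for Lamc1. They were not the lowest for every member. Nid2 averaged 6.53 ± 0.871 CPM in immune cells against 1.39 ± 0.185 CPM in the epithelium. Lama5 averaged 7.38 ± 0.442 CPM in them against 3.99 ± 1.98 CPM in pericyte-like cells.

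**Figure D1:**
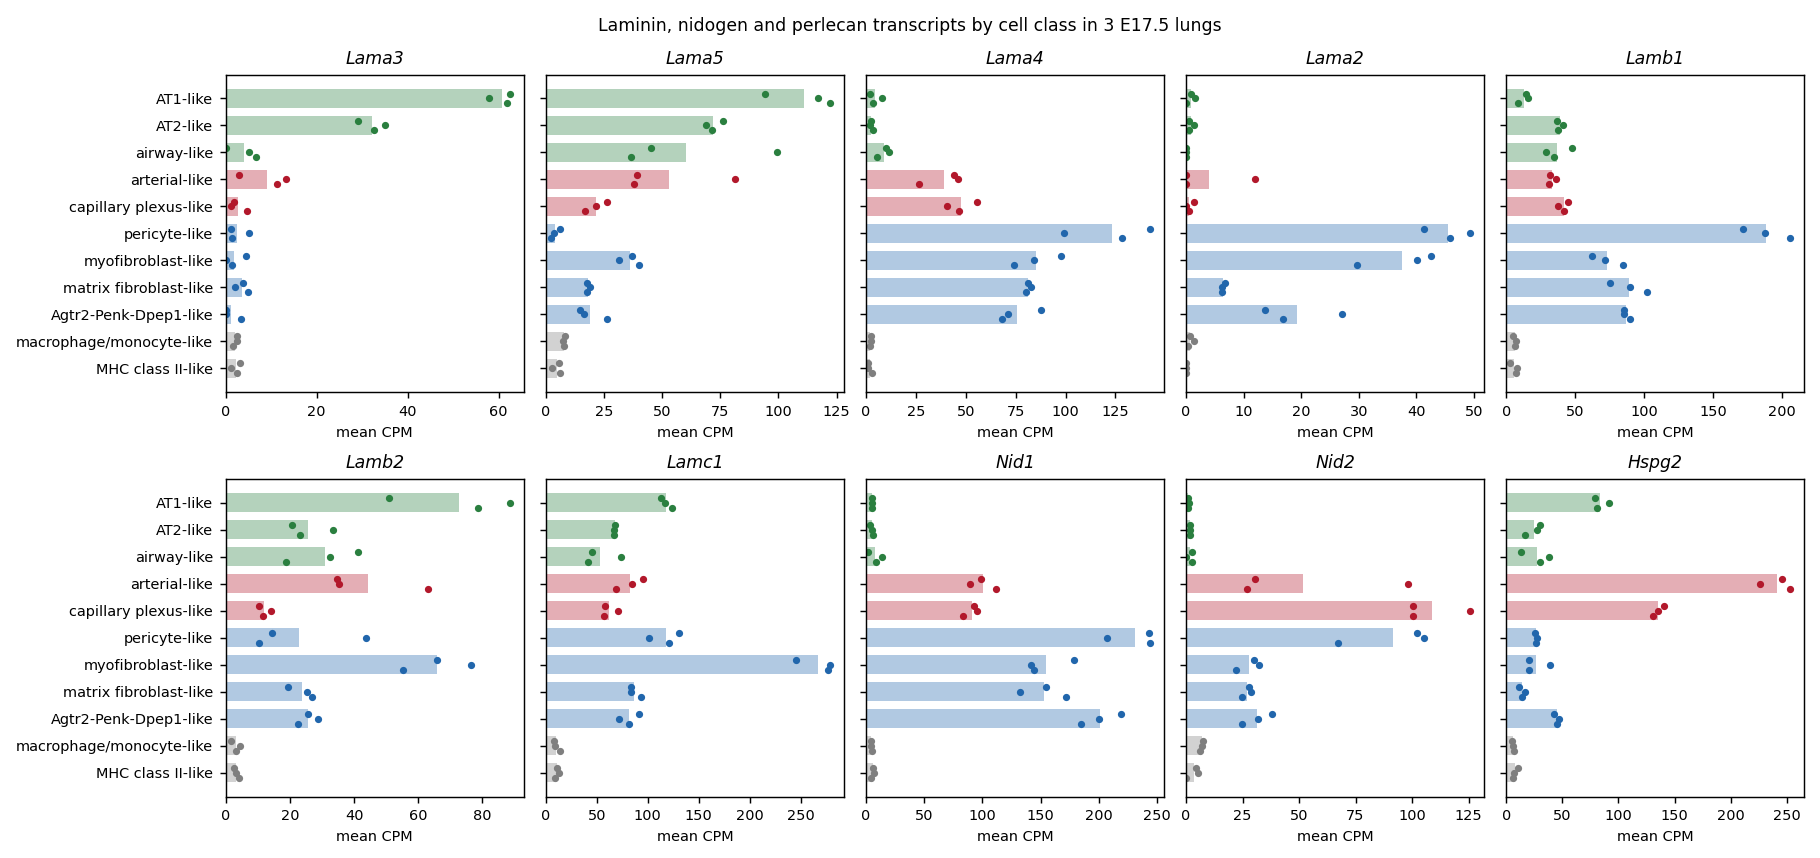
Level of each of the 10 genes (x axis, mean CPM, with a scale for each panel) in 11 cell classes of the E17.5 lung (y axis). Bars are the mean over 3 lungs and points the single lungs. Lama3 and Lama5 were highest in AT1-like cells among these classes, Lama2, Lama4, Lamb1 and Nid1 in pericyte-like cells, Lamc1 in myofibroblast-like cells, Nid2 in capillary cells and Hspg2 in arterial-like cells by their means. The single lungs overlap with the next class for some genes, such as Nid1 between pericyte-like and Agtr2-Penk-Dpep1-like cells and Lamb2 between AT1-like and myofibroblast-like cells.

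Each of the epithelium, the endothelium, the mesenchyme and the immune cells was set against the mean of the other 3 on log2(CPM + 10), which understates the change of low genes. A gene was called at an adjusted p (limma) under 0.05, and 9 of the 10 members reached the mean of 10 CPM required for a test, Lama2 being the exception. All 9 were called in the epithelium (5 higher, 4 lower), where 75.7% of all genes tested were called (27.5% higher, 48.1% lower). All 9 were also called in the endothelium (6 higher, 3 lower, background 79.1%, with 52.0% higher and 27.2% lower), in the mesenchyme (6 higher, 3 lower, background 76.4%, with 41.9% higher and 34.5% lower) and in immune cells (0 higher, 9 lower, background 85.4%, with 27.5% higher and 58.0% lower). With calls that common, the sizes carry more than the counts. Differences of at least 2-fold were called for 6 of the 9 in the epithelium (background 16.2%), 4 in the endothelium (15.6%), 4 in the mesenchyme (15.4%) and 8 in immune cells (24.3%). The members' median log2 difference was 0.53 in the epithelium, 0.48 in the endothelium, 0.72 in the mesenchyme and -1.76 in immune cells, where the medians over all tested genes were -0.12, 0.16, 0.04 and -0.28.

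Lama3 encodes the α3 chain, which ties epithelia to hemidesmosomes and the underlying matrix. Its level was high in the alveolar classes and low elsewhere. In AT1-like cells its level was 62.4, 57.9 and 61.8 CPM in lungs 1, 2 and 3, and in AT2-like cells 29.0, 35.1 and 32.7 CPM. The lungs did not overlap between these classes, and the difference of 0.74 on the log2 scale (SE 0.10) was called at an adjusted p of 8.20e-07. Airway-like cells had 3.95 ± 3.52 CPM, with 0 in lung 1, so the airway class did not share the alveolar level. Against the other compartments, Lama3 was higher in the epithelium by 2.09 (SE 0.07, adjusted p 5.18e-22), at 43.6 ± 0.962 CPM against 2.63 ± 0.658. In 7 of the 8 non-epithelial classes it stood at 2.45% to 8.21% of the epithelial level, a range that includes the share of Sftpc. The arterial-like class was the exception at 21.0% ± 12.8, and its lungs were far apart (2.89, 13.3 and 11.2 CPM).

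The β3 chain, Lamb3, was followed as a companion of Lama3 from a list of other laminin-type chains. Lamb3 reached 133 ± 6.70 CPM in AT1-like and 73.7 ± 4.11 CPM in AT2-like cells. It was higher in AT1-like cells by 0.77 (adjusted p 6.01e-09). Airway-like cells had 48.8 ± 10.5 CPM of Lamb3, where Lama3 stood at 3.95 ± 3.52 CPM.

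Lama5 encodes α5, the broad epithelial and vascular chain bound by integrins and by Bcam. AT1-like cells had 94.3, 117 and 122 CPM, AT2-like cells 76.0, 68.8 and 71.3 CPM. AT1-like cells were higher in all 3 lungs, by 0.56 on the log2 scale (SE 0.09, adjusted p 9.73e-06). Airway-like cells had 45.4, 99.2 and 36.5 CPM and arterial-like cells 39.2, 81.3 and 38.1 CPM, both with lung 2 far above the others. The ranges of AT2-like, airway-like, arterial-like and myofibroblast-like cells overlapped from neighbour to neighbour. The highest airway-like lung (99.2 CPM) also passed the lowest AT1-like lung (94.3 CPM). In the epithelium as a whole Lama5 was higher than in the other compartments by 1.92 (SE 0.07, adjusted p 3.84e-21), with 89.2 ± 5.41 against 17.2 ± 0.546 CPM.

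Outside the epithelium the share of Lama5 differed by class. Hhip-Ednrb myofibroblast-like cells had 37.1, 31.3 and 40.0 CPM, which is 40.7% ± 6.38 of the epithelial level of the same lung. Matrix fibroblast-like cells stood at 20.4% ± 0.881, Agtr2-Penk-Dpep1-like cells at 21.3% ± 6.54 and capillary cells at 24.4% ± 6.45. In pericyte-like cells the share was 4.56% ± 2.54, which is near that of Sftpc, and it was 8.80% ± 0.985 in macrophage or monocyte-like and 5.29% ± 2.23 in MHC class II-like cells. Within the mesenchyme, Lama5 was higher in myofibroblast-like cells by 1.04 (SE 0.17, adjusted p 1.44e-05) and lower in pericyte-like cells with a difference of -1.26 (SE 0.17, adjusted p 4.61e-07), each in 3 of 3 lungs.

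**Figure D2:**
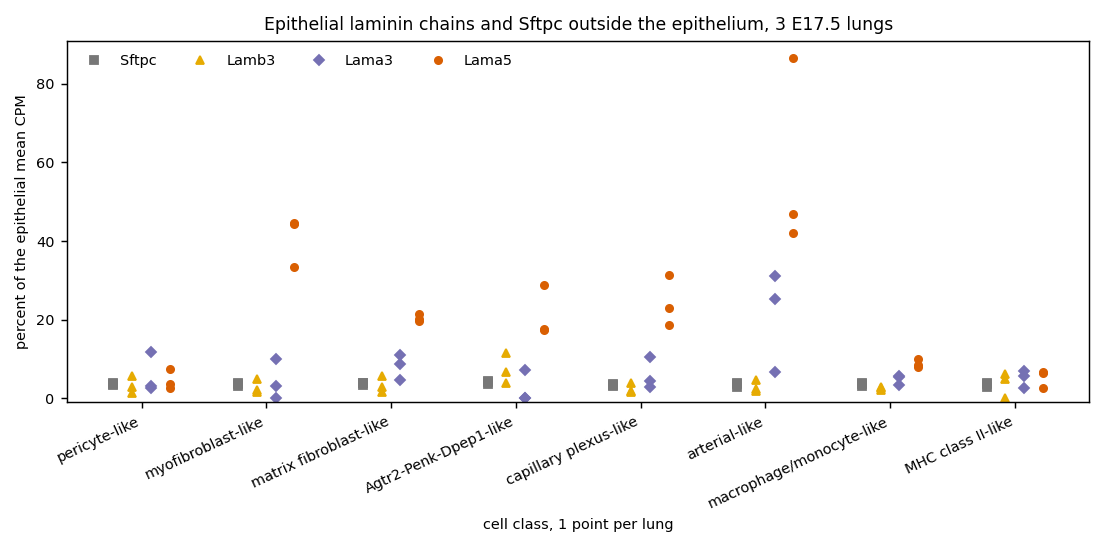
Level in 8 non-epithelial classes as a percentage of the epithelial mean of the same lung (y axis) for Sftpc, Lamb3, Lama3 and Lama5. Each point is 1 of the 3 lungs. Sftpc stayed between 3.49% and 4.02% on average, and Lama5 reached 40.7% in myofibroblast-like and 58.6% in arterial-like cells.

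Lama4 encodes α4, the chain of endothelial and mesenchymal basement membranes, whose short N-terminal arm cannot polymerise. Pericyte-like cells had 142, 99.1 and 128 CPM and were above every other of the 11 classes in each lung. A part of the Agtr2-Penk-Dpep1-like class, 82 cells set apart by a finer clustering described below, had 167, 93.4 and 107 CPM. Myofibroblast-like cells had 85.4 ± 11.8 CPM, matrix fibroblast-like cells 81.4 ± 1.38 CPM and Agtr2-Penk-Dpep1-like cells 75.6 ± 10.6 CPM, and these 3 overlapped. Capillary cells had 55.4, 40.7 and 46.7 CPM and arterial-like cells 39.0 ± 10.7 CPM. In the epithelium the level was 3.91 ± 1.43 CPM, close to the 2.58 ± 0.636 CPM of immune cells. Against the other compartments Lama4 was higher in the mesenchyme by 2.14 (SE 0.07, adjusted p 1.39e-21) and in the endothelium by 1.19 (SE 0.07, adjusted p 3.19e-15). Among mesenchymal classes it was higher in pericyte-like cells by 0.55 (SE 0.11, adjusted p 0.000178).

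Lama2 encodes α2, the merosin chain that holds muscle and peripheral nerve to their sheath through dystroglycan. Pericyte-like cells had 41.3, 49.4 and 45.9 CPM and myofibroblast-like cells 42.5, 40.1 and 29.8 CPM. The ranges of these 2 classes overlapped, and both lay above the Agtr2-Penk-Dpep1-like cells (13.7, 27.1 and 16.8 CPM). Matrix fibroblast-like cells were low, with 6.80, 6.20 and 6.30 CPM. Set against the other mesenchymal classes, Lama2 was higher in pericyte-like cells by 0.98 (SE 0.16, adjusted p 1.40e-05) and in myofibroblast-like cells by 0.67 (SE 0.16, adjusted p 0.00186), and lower in matrix fibroblast-like cells with a difference of -1.36 (SE 0.16, adjusted p 1.14e-07). Without lung 1 the myofibroblast-like difference of Lama2 was 0.53 and was no longer called (adjusted p 0.0555). Outside the mesenchyme no class mean passed 0.780 CPM except in arterial-like cells, where UMIs of lung 2 alone gave 3.98 ± 6.89 CPM.

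The β chains separated pericyte-like cells from the AT1-like and myofibroblast-like cells. Lamb1, the β1 chain of most embryonic laminins, had 172, 188 and 206 CPM in pericyte-like cells, with no lung of another class reaching that range. Matrix fibroblast-like cells followed with 89.2 ± 13.5 CPM, Agtr2-Penk-Dpep1-like cells with 87.1 ± 2.59 CPM and myofibroblast-like cells with 73.1 ± 11.5 CPM. Lamb1 was higher in pericyte-like cells than in the other mesenchyme by 1.10 (SE 0.10, adjusted p 2.51e-10) and lower in myofibroblast-like cells, with a difference of -0.58 (SE 0.10, adjusted p 2.60e-05). In the alveolar epithelium the order was the reverse of that of Lama3 and Lama5. AT2-like cells had 37.1, 41.3 and 37.7 CPM and AT1-like cells 14.1, 16.1 and 8.8 CPM, a difference of -1.09 (SE 0.12, adjusted p 2.44e-08) of AT1-like from AT2-like cells in 3 of 3 lungs. AT1-like cells were thus low in the β1 chain while high in β3. Over the whole epithelium Lamb1 was lower, with a difference of -0.33 (adjusted p 0.00015), but edgeR on the recovered UMIs gave 0.08 (adjusted p 0.425).

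Lamb2 encodes β2, the chain of kidney glomerular and neuromuscular basement membranes. AT1-like cells had 50.8, 88.5 and 78.7 CPM against 20.6, 33.6 and 23.2 CPM in AT2-like cells. Every lung showed more in AT1-like cells, by 1.19 on the log2 scale (SE 0.10, adjusted p 3.55e-10). Myofibroblast-like cells had 65.7, 76.5 and 55.2 CPM and were higher than the other mesenchyme by 1.19 (SE 0.18, adjusted p 3.64e-06). Arterial-like cells had 34.8, 35.5 and 63.2 CPM and capillary cells 10.4, 14.3 and 11.6 CPM. This difference was 1.27 (SE 0.29, adjusted p 0.00104), in 3 of 3 lungs. It was not called when genes of any level were tested (adjusted p 0.0568). In pericyte-like cells Lamb2 was uneven, with 14.6, 43.6 and 10.4 CPM, and its difference of -0.58 (adjusted p 0.00984) held in 2 of 3 lungs. It ended without lung 1 (-0.47, adjusted p 0.137) and without lung 3 (-0.34, adjusted p 0.205).

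Lamc1, the γ1 chain shared by most laminins, was found in every non-immune class and was highest in Hhip-Ednrb myofibroblast-like cells, at 245, 278 and 277 CPM. AT1-like cells had 113, 117 and 123 CPM and pericyte-like cells 118 ± 15.2 CPM, and no lung of these reached the myofibroblast-like range. All other non-immune classes lay between 53.2 ± 17.6 CPM in airway-like cells and 86.9 ± 5.93 CPM in matrix fibroblast-like cells. Within the mesenchyme the myofibroblast-like difference was 1.41 (SE 0.10, adjusted p 1.44e-12), with -0.61 (adjusted p 1.56e-05) in matrix fibroblast-like and -0.72 (adjusted p 1.44e-06) in Agtr2-Penk-Dpep1-like cells. The Agtr2-Penk-Dpep1-like class is a mixture, described below, and its 82 cells without the smooth muscle-like ones had 146, 89.9 and 128 CPM. After thinning to 3000 UMIs, 52.8% ± 3.15 of myofibroblast-like cells held a Lamc1 UMI, against 3.23% ± 0.617 of immune cells. Without thinning the shares were 77.9% and 7.69%, at median depths of 6685 and 7370.5 UMIs; thinning left out 6 and 69 cells. AT1-like cells had more Lamc1 than AT2-like cells by 0.72 (SE 0.08, adjusted p 2.80e-08). In the endothelium the small difference of 0.18 (adjusted p 0.00998) turned to -0.04 under median-of-ratios scaling and was 0.11 without lung 2, where it was not called (adjusted p 0.179).

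**Figure D3:**
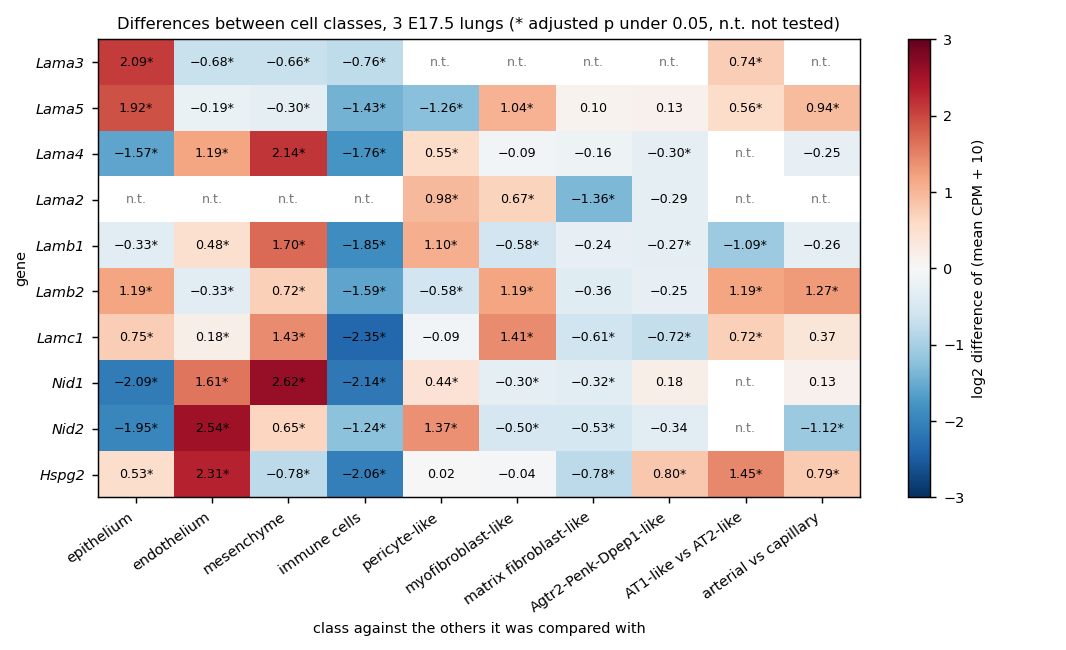
Differences in log2(CPM + 10) for each gene (rows) in 10 comparisons (columns) among cells of the 3 E17.5 lungs, red higher and blue lower in the class named. An asterisk marks an adjusted p (limma) under 0.05 and n.t. a gene under the level required for a test; all 9 members tested were lower in immune cells.

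Nid1, nidogen-1, bridges the laminin γ1 chain and type IV collagen. It was a gene of the mesenchyme and endothelium, and its level in the epithelium matched that of immune cells. Pericyte-like cells had 243, 207 and 244 CPM and Agtr2-Penk-Dpep1-like cells 219, 200 and 185 CPM, which overlapped. Myofibroblast-like and matrix fibroblast-like cells followed with 155 ± 20.5 and 153 ± 19.6 CPM, arterial-like cells with 100.2 ± 11.2 CPM and capillary cells with 90.7 ± 6.34 CPM. The epithelium had 5.24 ± 0.995 CPM and immune cells 4.88 ± 0.155 CPM, so that the epithelial difference was -2.09 (SE 0.07, adjusted p 1.78e-22) and the mesenchymal one 2.62 (SE 0.07, adjusted p 6.86e-25). In thinned cells 50.7% ± 8.39 of pericyte-like cells held a Nid1 UMI, 1.06% ± 1.05 of AT1-like cells and 1.69% ± 0.358 of immune cells. Unthinned, these shares were 80.0%, 4.85% and 4.04%, at median depths of 7977, 8143 and 7370.5 UMIs, and thinning left out 3, 42 and 69 cells. In thinned cells the AT1-like share was no higher than the immune one.

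Nid2, nidogen-2, is the second nidogen and is known from vascular basement membranes. Capillary cells had 101, 126 and 100.4 CPM, and pericyte-like cells had 102, 105 and 67.3 CPM. The capillary cells and the pericyte-like cells that wrap them overlapped at the top of the order. All other mesenchymal classes lay at 27.2 to 31.5 CPM and the epithelium at 1.39 ± 0.185 CPM. Nid2 was higher in the endothelium than in the other compartments by 2.54 (SE 0.08, adjusted p 4.43e-23), at 108 ± 16.2 against 14.1 ± 2.30 CPM, and higher in pericyte-like cells than in the other mesenchyme by 1.37 (SE 0.14, adjusted p 2.40e-09). In the mesenchyme as a whole the log2 difference of Nid2 was 0.65 (adjusted p 5.27e-09), whereas the plain means were 34.5 CPM against 38.7 CPM, so the sign depended on the scale. Arterial-like cells had 30.7, 98.2 and 26.9 CPM. They were lower than capillary cells by the fit, with a difference of -1.12 (SE 0.22, adjusted p 7.55e-05), but lung 2 lay far above the other lungs. The arterial-like class of a finer clustering turned the difference to 0.23 (adjusted p 0.251). Summed erythroid markers in arterial-like cells ranged from 25.8 to 2190 CPM over the lungs; their part in the arterial values was not tested.

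Hspg2, perlecan, carries heparan sulfate chains and is a core component of vascular basement membranes. Arterial-like cells had 246, 226 and 253 CPM and capillary cells 141, 135 and 131 CPM. The order arterial-like, capillary, AT1-like (78.9, 91.2 and 81.4 CPM), Agtr2-Penk-Dpep1-like (44.9 ± 2.11 CPM) held in every lung without overlap. Hspg2 was higher in the endothelium by 2.31 (SE 0.07, adjusted p 4.49e-23) and higher in arterial-like than capillary cells by 0.79 (SE 0.14, adjusted p 2.41e-05). In thinned cells 50.1% ± 9.88 of arterial-like, 31.9% ± 1.71 of capillary and 1.83% ± 0.306 of immune cells held a UMI. Unthinned, the shares were 70.6%, 53.1% and 5.15%, at median depths of 6529, 6411 and 7370.5 UMIs, and 6, 39 and 69 cells were left out. AT2-like cells had 30.4, 27.0 and 17.2 CPM, so AT1-like cells were higher by 1.45 (SE 0.11, adjusted p 1.68e-11), the largest of the 6 member differences tested between these classes. Over the epithelium as a whole the log2 difference was 0.53 (adjusted p 5.18e-08) while the plain means were 52.6 ± 4.77 CPM against 58.5 ± 0.986 CPM, so the sign depended on the scale.

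Within the mesenchyme Hspg2 was higher in the Agtr2-Penk-Dpep1-like class by 0.80 (SE 0.16, adjusted p 0.000279) and lower in matrix fibroblast-like cells, with a difference of -0.78 (SE 0.16, adjusted p 0.00027). A finer clustering split the Agtr2-Penk-Dpep1-like class by its smooth muscle genes. The 129 smooth muscle-like cells had 57.8, 49.8 and 67.0 CPM of Hspg2, and the other 82 had 14.4, 42.6 and 13.0 CPM. Lama4 ran the other way, with 47.5 ± 7.17 CPM in the smooth muscle-like cells and 122 ± 39.0 CPM in the rest, as did Lamb1 with 62.9 ± 6.77 and 127 ± 15.1 CPM. The class is therefore a mixture in its basement membrane genes, and the split was not tested.

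Within the mesenchyme each class was set against the mean of the other 3. In pericyte-like cells 7 of 9 members were called (5 higher, 2 lower), where 39.3% of all genes were called (20.3% higher, 18.9% lower). In myofibroblast-like cells 7 of 9 were called (4 higher, 3 lower), with a background of 32.9% (19.8% higher, 13.1% lower). Matrix fibroblast-like cells had 5 of 9 called, 0 higher and 5 lower, with a background of 28.8% (10.8% higher, 18.0% lower). Agtr2-Penk-Dpep1-like cells had 4 of 9 called, 1 higher and 3 lower, with a background of 26.8% (11.8% higher, 14.9% lower). Called differences of at least 2-fold numbered 3 in pericyte-like cells (background 9.82%), 3 in myofibroblast-like cells (6.83%), 1 in matrix fibroblast-like cells (5.89%) and 0 in Agtr2-Penk-Dpep1-like cells (5.13%). Of the 4 calls in Agtr2-Penk-Dpep1-like cells, those of Lama4 (-0.30, adjusted p 0.0448) and Lamb1 (-0.27, adjusted p 0.0415) were lost when any 1 lung (Lama4), or lung 2 or 3 (Lamb1), was left out. In matrix fibroblast-like cells the calls of Nid1 and Nid2 (-0.32 and -0.53) were lost without lung 1 and without lung 2. In myofibroblast-like cells Nid1 (-0.30) was lost without lung 2 and without lung 3, and Nid2 (-0.50) without lung 1. At Leiden resolution 2 these differences shrank to -0.013 for Nid1 (adjusted p 0.937) and -0.20 for Nid2 (adjusted p 0.341). Lama4, not called at first (-0.09), was -0.48 there (adjusted p 0.00252). Between AT1-like and AT2-like cells 6 of 6 members tested were called (5 higher in AT1-like cells, 1 lower), with 39.5% of all genes called (26.2% higher, 13.3% lower), and 3 of the 6 differed by at least 2-fold (background 6.58%). Between arterial-like and capillary cells 4 of 8 were called (3 higher, 1 lower), with 14.7% of all genes called (7.5% higher, 7.22% lower), and 2 differed by at least 2-fold (background 6.01%). The arterial-like difference of Lama5 (0.94, adjusted p 0.0112) was 0.64 without lung 2 and was not called (adjusted p 0.246).

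The mix of chains within a class was followed as each chain's share of the UMIs of its kind. A share compares 1 chain across classes; it does not rank chains within a class, since the capture of different transcripts may differ. Among the α chains Lama4 made up 67.6% ± 4.76 of the UMIs in pericyte-like cells, 73.2% ± 1.08 in matrix fibroblast-like cells, 64.0% ± 3.34 in capillary cells and 49.2% ± 1.42 in myofibroblast-like cells. Lama2 gave 27.2% ± 4.62 in pericyte-like and 24.9% ± 3.70 in myofibroblast-like cells but 6.97% ± 0.681 in matrix fibroblast-like cells. Lama5 gave 62.7% ± 0.892 in AT1-like and 66.9% ± 2.87 in AT2-like cells, 22.2% ± 3.24 in myofibroblast-like cells, 16.3% ± 1.27 in matrix fibroblast-like cells and 2.53% ± 0.868 in pericyte-like cells.

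The β mix moved along another line. Lamb1 held 88.1% ± 6.78 of β UMIs in pericyte-like cells, 77.1% ± 1.08 in matrix fibroblast-like cells and 75.9% ± 4.26 in capillary cells, against 54.5% ± 4.83 in myofibroblast-like and 41.6% ± 9.69 in arterial-like cells. Lamb2 held 53.2% ± 10.4 in arterial-like, 43.2% ± 4.01 in myofibroblast-like and 34.7% ± 5.08 in AT1-like cells. The arterial-like β shares rest on only 59 UMIs over the lungs, with 17 in the lung that had fewest. In AT1-like cells Lamb1 was down to 7.97% ± 1.44, and Lamb3 held 57.3% ± 4.50. Of the 2 nidogens, Nid2 held 53.6% ± 3.0 of the UMIs in capillary cells, 28.0% ± 4.63 in pericyte-like cells and 12.6% to 15.6% in the other mesenchymal classes.

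**Figure D4:**
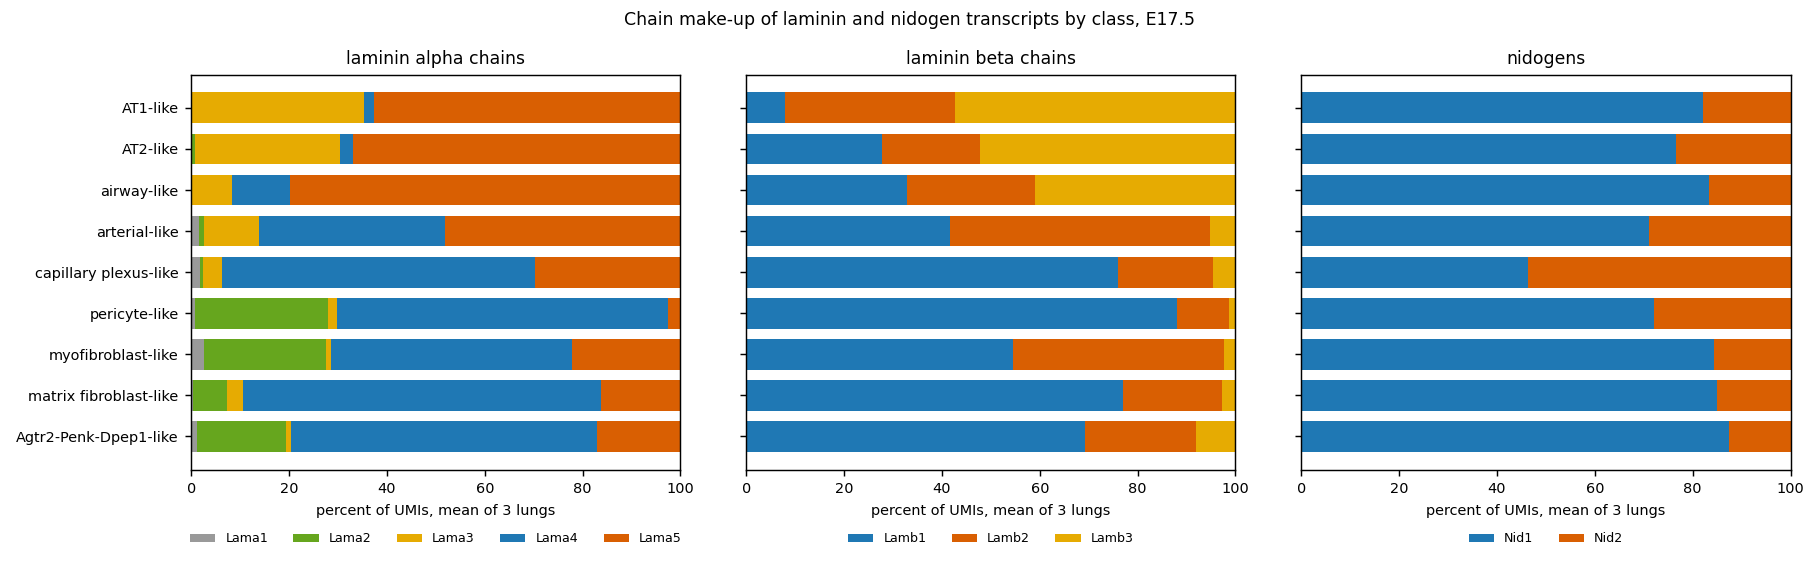
Share of UMIs (x axis, percent, mean of 3 lungs) held by each α chain, β chain and nidogen in 9 cell classes (y axis); the epithelial nidogen bars rest on few UMIs. The share of Lama4 is 73.2% in matrix fibroblast-like and 49.2% in myofibroblast-like cells, and that of Nid2 is 53.6% in capillary and 28.0% in pericyte-like cells.

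A trimer was counted as allowed in a class where its 3 chains were each at 20 CPM or more in every lung and at 2 times the immune mean or more. This is a rule on transcripts at the level of a class; protein, assembly and secretion were not measured. Among the trimers that can be built from the chains described here, AT1-like cells allowed LM321 and LM521, and AT2-like cells LM311, LM321, LM511 and LM521. What separated them was Lamb1, which was under the limit in AT1-like cells, so that no trimer with a β1 chain was allowed there. Pericyte-like cells allowed LM211 and LM411, myofibroblast-like cells LM211, LM221, LM411, LM421, LM511 and LM521, Agtr2-Penk-Dpep1-like cells LM411 and LM421, and matrix fibroblast-like cells LM411. The Agtr2-Penk-Dpep1-like list is that of the mixed class. In its 82 cells without the smooth muscle-like ones, Lama2 was at 22.3, 40.0 and 22.6 CPM. Lamb1, Lamb2 and Lamc1 were also above 20 CPM there in every lung, so LM211 and LM221 would pass the limit in that part. Capillary cells allowed LM411 and arterial-like cells LM411, LM421, LM511 and LM521. Airway-like cells allowed LM511, and neither immune class allowed any. Lama1, whose α1 chain forms LM111, stayed at or under 4.09 CPM in these classes, and Lamc3 at or under 8.40 CPM, so no trimer with α1 or γ3 was allowed. The rule depends on its limit: at 10 CPM capillary cells allowed 4, and at 50 CPM AT2-like, airway-like, arterial-like and capillary cells allowed 0. LM411 was allowed in all 4 mesenchymal classes at the limits of 20 and 50 CPM.

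The promoter windows of 3 members with contrasting patterns are shown to set sequence beside level: Nid1, highest in mesenchyme, Lama5, highest in AT1-like cells, and Lamb2, high in AT1-like and myofibroblast-like cells. Each is the RefSeq window from 250 to 51 bases before the annotated start, read 5′ to 3′ on the gene's strand in build GRCm38.p6. Nid1 lies at chr13:13437352-13437551 on the plus strand, Lama5 at chr2:180225910-180226109 on the minus strand and Lamb2 at chr9:108479612-108479811 on the plus strand. Capitals mark a GC box, GGGCGG on either strand.
Nid1: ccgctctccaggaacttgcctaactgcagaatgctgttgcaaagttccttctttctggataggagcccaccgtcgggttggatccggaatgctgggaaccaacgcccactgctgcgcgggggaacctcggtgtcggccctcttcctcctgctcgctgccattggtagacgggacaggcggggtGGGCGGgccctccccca
Lama5: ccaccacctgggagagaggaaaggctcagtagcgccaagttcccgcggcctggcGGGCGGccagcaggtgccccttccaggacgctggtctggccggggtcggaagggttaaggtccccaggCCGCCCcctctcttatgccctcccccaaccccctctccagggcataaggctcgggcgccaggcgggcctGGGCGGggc
Lamb2: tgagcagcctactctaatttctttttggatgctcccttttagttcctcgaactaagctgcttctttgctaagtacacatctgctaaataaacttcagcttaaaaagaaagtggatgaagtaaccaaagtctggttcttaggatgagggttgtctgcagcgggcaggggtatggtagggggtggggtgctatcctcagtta
Lama5 held 3 GC boxes and 72% G or C, Nid1 had 1 box and 63.5%, and Lamb2 had 0 boxes and 44.5%. Over 32851 windows of the same length 24.6% held a GC box, and the median was 51.5% G or C. None of the 3 held TATAAA (9.14% of windows), and only Nid1 among them held CCAAT (28.4% of windows), both searched on either strand. Bases closer to the start than 51 lie outside the windows and were not searched. Of the 10 members 6 had a window; Lama3, Lama4, Lamc1 and Nid2 did not. The windows of Lama2, Lamb1 and Hspg2 overlap a gene model and are not shown; they held 0, 2 and 5 GC boxes. These matches describe letters only. Lama5 and Lamb2, both high in AT1-like cells, had windows of unlike base composition.

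Other components of the basement membrane were followed from fixed lists. Of 22 further structural genes, 16 were tested in the epithelium (11 higher, 4 lower), where 27.5% of all genes were higher and 48.1% lower, and their median log2 difference was 1.32 against -0.12 for all genes. Epithelial cells were rich in Egfl6, a secreted EGF-repeat matrix protein, at 290 ± 9.60 against 5.04 CPM (log2 difference 4.32), in Tinagl1 (336 ± 17.4 against 44.1 CPM, 3.10), in the integrin α8 ligand Npnt (272 ± 11.5 against 69.7 CPM, 2.77) and in Col4a4 (2.61). In the endothelium 9 of 16 were higher and 7 lower (all genes 52.0% and 27.2%). The type IV collagen genes Col4a1 and Col4a2, whose network nidogens and perlecan join to laminin, led there with 885 ± 26.5 against 195 CPM (2.81) and 448 ± 9.20 against 92.5 CPM (2.57). Pericyte-like cells were also higher in Col4a1 (1.76) and Col4a2 (1.93) than the other mesenchyme, with 1196 ± 25.4 CPM of Col4a1. AT1-like cells exceeded AT2-like cells in Col4a3, at 88.7 ± 24.4 against 8.91 CPM (2.36), and Col4a4, at 119 ± 17.4 CPM (2.31), and had less Col18a1, at 37.2 against 179 CPM. In immune cells 16 of 16 were lower, as were 58.0% of all genes.

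Of 14 genes on the receptor list, 11 were tested in the compartments and in the mesenchyme. In the endothelium 8 were higher and 2 lower (all genes 52.0% and 27.2%). Those higher included the integrin chain Itga6 (203 ± 2.23 against 31.3 CPM, 2.44), its tetraspanin partner Cd151 (2.25) and the laminin α4 receptor Mcam (222 ± 7.91 against 31.1 CPM, 3.08). In pericyte-like cells 8 were higher and 2 lower than in the other mesenchyme (all genes 20.3% and 18.9%), with Mcam at 593 ± 34.4 against 52.9 CPM (3.85), Itga1 at 153 ± 20.2 against 14.5 CPM (2.75) and Itga6 at 110 ± 21.2 against 12.9 CPM (2.55). In matrix fibroblast-like cells 0 were higher and 11 lower (all genes 10.8% and 18.0%), Mcam by -3.46 and Itga6 by -1.59. The laminin α5 receptor Bcam stood at 726 ± 58.0 CPM in the epithelium against 133 CPM elsewhere (2.97), and in AT1-like cells at 1122 ± 58.1 against 369 CPM in AT2-like cells (1.58). Dystroglycan, Dag1, was higher in the epithelium (2.10) and in AT1-like over AT2-like cells (1.29), and the integrin chain Itga3 in both comparisons (1.46 and 1.35). In the myofibroblast-like cells, 3 were higher and 5 lower (all genes 19.8% and 13.1%), with Itga9 leading at 155 ± 6.86 against 16.6 CPM (2.68). Matrix turnover genes were higher in the mesenchyme in 8 of 10 tested and lower in 1 (all genes 41.9% and 34.5%), led by the gelatinase Mmp2 (4.01) and the protease Adamts1 (2.54).

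Likeness of pattern was measured as Pearson's r of log2(CPM + 10) over 33 points, 11 classes in each of 3 lungs; the points share lungs and a broad division into compartments, so r is given as a description. Lama4 and Nid1 were each among the 3 genes most like the other, with r = 0.976, among 5452 genes of at least 50 CPM in some class. Nid1 was also like Cald1 (0.982), a contractile-cell actin regulator, and Hoxb4 (0.977). Lama3 was most like Tinag (0.953), itself a basement membrane gene, and Hspg2 most like Cav1 (0.955), the caveolar protein abundant in endothelial and AT1 cells. Lamb1 was most like Maged2 (0.950), Lamc1 like Rcn2 (0.946), Nid2 like Abcg2 (0.931), Lama5 like Tmem63b (0.903) and Lamb2 like Akap8l (0.901). Among pairs of members, Lama4 with Lamb1 reached 0.867, Nid1 with Nid2 0.837, Lamb2 with Lamc1 0.811 and Lama3 with Lama5 0.734. Lamb1 and Lamb2, which fill the same place in a trimer, had 0.329, and Lama3 and Lama4 -0.477.

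The E16.5 sort, clustered apart, was set beside the 4 mesenchymal classes of the lungs that carry the same names. It held 903 pericyte-like, 794 myofibroblast-like, 255 matrix fibroblast-like and 95 Agtr2-Penk-Dpep1-like cells. With 1 sorted sample there is no test, and the intervals are exact Poisson intervals on the summed UMIs, which cover counting error only. Free epithelial RNA was scarcer in the sort, where Sftpc stood at 29.2 to 36.9 CPM in these classes against 1777 to 2005 CPM in the lungs. In pericyte-like cells 9 of 10 members lay below the range of the 3 lungs and 0 above it. Over all genes of at least 10 CPM in the sort or in the mean of the lungs, 29.6% lay below and 27% above. The median log2 difference was -0.02 for these genes against -0.55 for the members. The members were counted without that limit, and Lama3 (0 against 2.57 CPM) and Lama5 (0.738 against 3.99 CPM) were under it. Lama2 stood at 11.8 CPM (154 UMIs, interval of the summed CPM 9.43 to 13.0) against 41.3, 49.4 and 45.9 CPM. Lama4 stood at 52.7 CPM (678 UMIs) against 142, 99.1 and 128 CPM, and Nid1 at 129 CPM against 243, 207 and 244 CPM. Lamb1 was nearer, with 127 CPM against 189 ± 17.1 CPM. Each of these was lower in the sort than in every lung. The sorted class pooled a cluster of 484 cells with clusters of 290 and 129 cells led by cell cycle genes. The leading genes of the lungs' pericyte-like cluster held no cell cycle gene. In the 484 cells Nid2 was at 72.6 CPM, within the lungs' 67.3 to 105 CPM, and the other members below the range stayed below it. In the cycling clusters Nid2 was at 51.9 and 48.5 CPM. The part of cycling in these values was not tested.

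In myofibroblast-like cells 6 members lay below the lungs and 1 above (all genes 25.3% and 39.5%). Lamc1 was at 178 CPM (1586 UMIs) against 245, 278 and 277 CPM, Lamb2 at 31.9 CPM against 65.7, 76.5 and 55.2 CPM and Lama5 at 13.7 CPM against 37.1, 31.3 and 40.0 CPM. Nid2 was the member above the lungs, at 38.7 CPM against 22.0 to 32.3 CPM, and Lamb1 lay within them. The sorted class joined clusters whose smooth muscle markers stood 3.68 and 2.48 above the average lung cluster (mean log2). Their myofibroblast markers stood at 3.27 and 2.18. In the lungs' myofibroblast-like cluster these values were 2.57 and 2.91. A sorted cluster of 215 cells led by cell cycle genes, with 8 of 10 myofibroblast markers raised, was left out of the class. The part of this make-up in the values was not tested. In matrix fibroblast-like cells 6 were below and 2 above (all genes 24.6% and 57.3%), with Nid1 at 90.0 CPM against 153 ± 19.6 CPM and Lama5 at 2.16 CPM (6 UMIs) against 18.2 ± 0.711 CPM. Lama3, below at 0 against 3.61 CPM, and Lama2, above at 7.69 against 6.43 CPM, were under the 10 CPM limit set for all genes. Lama4 there was 82.6 CPM against 81.4 ± 1.38 CPM and within the range. In Agtr2-Penk-Dpep1-like cells 6 were below and 2 above (all genes 26% and 37%). This class was also not alike in the lungs and the sort. Of 9 smooth muscle markers, 7 were raised at least 2-fold over the average lung cluster in the lungs, and 3 in the sort. The part of that unlike make-up in the values was not tested. Nid1, at 86.4 CPM (73 UMIs) against 219, 200 and 185 CPM, was the only member of at least 50 CPM, in the sort or in the mean of the lungs, that lay at least 2-fold beyond all 3 lungs in any of the 4 classes. Members under that level were not counted, such as Lama2 in pericyte-like cells and Lama5 in matrix fibroblast-like and myofibroblast-like cells, whose lower values are given above. In the Agtr2-Penk-Dpep1-like class 8.44% of the genes of that level did, against 5.57% in pericyte-like, 5.88% in myofibroblast-like and 7.55% in matrix fibroblast-like cells. When all 4 samples were clustered together, Nid1 did not reach that limit, and Lamb2 in myofibroblast-like cells did.

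The mix of α chains was read in the sort as well. Lama4 gave 79.9% of α UMIs in sorted pericyte-like cells (exact binomial interval 77.0% to 82.5%) and 60.3% in sorted myofibroblast-like cells (57.2% to 63.3%), more in the former, as in the lungs. Lama5 gave 11.2% in sorted myofibroblast-like cells (9.30% to 13.2%). By the level rule the sort allowed LM411 in all 4 classes, and LM211, LM221 and LM421 also in myofibroblast-like cells. LM511 and LM521, allowed in the myofibroblast-like cells of the lungs, were not allowed in those of the sort, where Lama5 was under 20 CPM.

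**Figure D5:**
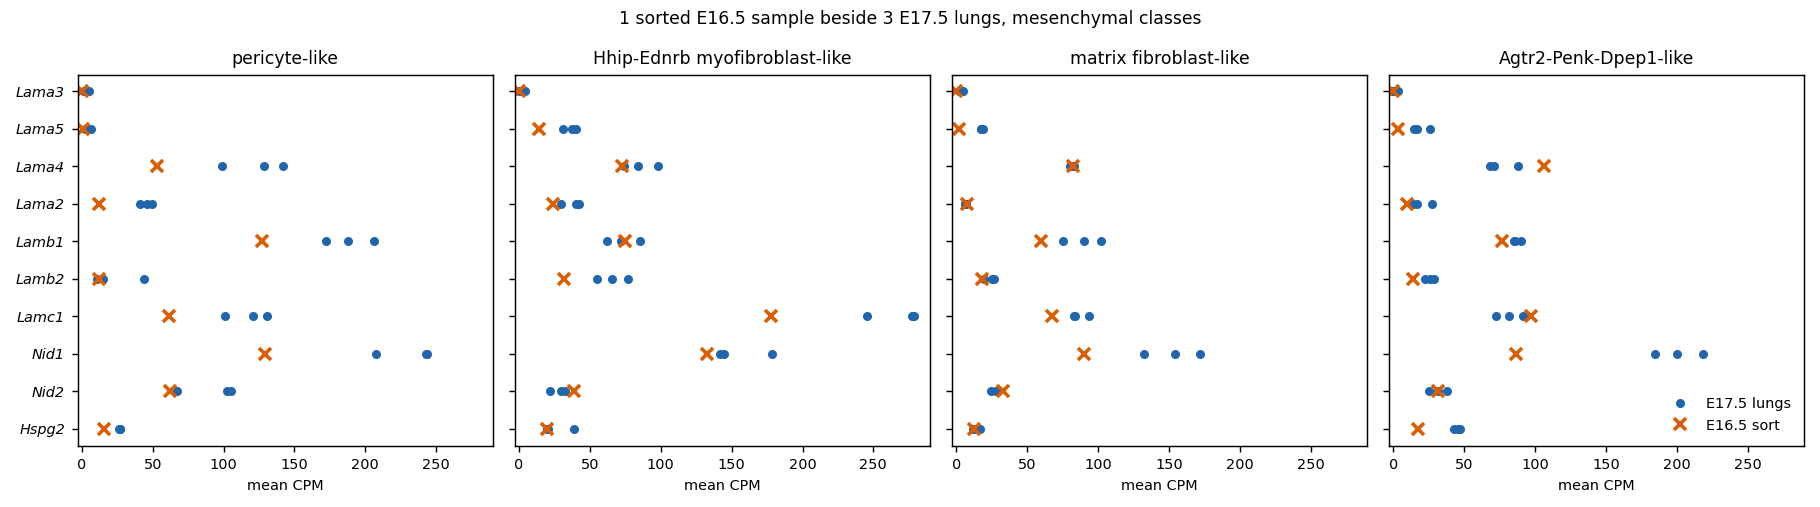
Level of each member (CPM) in 4 mesenchymal classes, with a point for each of the 3 E17.5 lungs and a cross for the single E16.5 sort. In pericyte-like cells the cross lies below all lung points for 9 of 10 members, and Lamb2 is the exception.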

How the data were processed

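Single-cell RNA was measured in 3 E17.5 lungs and 1 E16.5 sort. The deposited tables hold normalized signal per gene and cell; the submitters' processing notes name Cell Ranger 1.3.1 and Seurat 3.0.0, and no genome build is named there. Each column sums to the sample's median UMI count, and dividing by the value of 1 UMI gave whole UMIs for 100% of values (tolerance 0.01), so counts were recovered. The labels' protocol speaks of lysis plates, whereas cell barcodes and Cell Ranger belong to droplet libraries; the platform is therefore an inference. Totals were 41038008 UMIs in the sort and 23996253, 20347458 and 21358915 in lungs 1, 2 and 3.

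Called doublets were removed (30 in the sort; 36, 34 and 26 in the lungs), which left 3055 and 7383 cells; 32 cells with over 10% mitochondrial UMIs were kept. Genes were divided by a seeded hash into a clustering and a held-out group. Markers went to the first, members and lists to the second, and only held-out genes were tested, so that no tested gene shaped the classes. Clustering used scanpy 1.11.5 (2000 variable genes, 30 components, 15 neighbours, Leiden resolution 1) in Python 3.11.15, the lungs together and the sort apart. The erythroid name carried a stricter marker condition, added after the clusters were seen.

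Mean CPM per class and lung was tested as log2(CPM + 10) with limma 3.58.1 in R 4.3.3 (trend, lung as a block, Benjamini-Hochberg over all genes averaging 10 CPM or more). The variance shared over genes had median degrees of freedom of 22.6 (compartments), 21.8 (mesenchyme), 22.7 (alveolar) and 56.0 (endothelial). A gene's own variance had 6, 6, 2 and 2, so the SEs and p-values lean on the shared one. Classes of 1 lung come from the same animal, and the check bore out the pairing: deviations from the class means correlated at 0.200 to 0.424 within a lung in 18 of 18 pairs, and at -0.271 to 0.0284 between lungs. On simulated data the compartment fit recovered 100% of genes changed 2-fold, with 10 false among 210 calls, and the mesenchymal fit recovered 91%, with 1 false among 192. The simulation gave every gene the same dispersion, with no lung effect and no class difference apart from the changed genes. The alveolar and endothelial fits were not simulated, so these rates need not hold for the data.

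All 10 members are named. From each fixed list at most 4 genes per comparison are, those with the largest log2 difference among genes called and moving 1 way in 3 of 3 lungs. A gene of the list of other laminin-type chains is not reported here. The members and lists were chosen with earlier results of these data known. Alternatives included edgeR 4.0.16 on recovered counts, other scalings, pseudocounts, filters, clusterings and gene divisions, and each lung left out.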

Additional observations from a re-analysis of the deposited data

How the results depend on the processing

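Of 86 member tests 69 were called, and 54 of these kept direction and call under all 12 other settings. Of the rest, 3 turned direction: Lamb1 in the epithelium with edgeR (0.079), Lamc1 in the endothelium with median-of-ratios scaling (-0.044) and Nid2 in arterial-like cells at Leiden resolution 2 (0.23); the cause was not tested. Among differences that were not called, Hspg2 in myofibroblast-like cells turned with another gene division (0.0025) and ranged from -0.231 to 0.0909 with 1 lung left out, turning without lung 1 (0.03) and without lung 3. Hspg2 in pericyte-like cells turned with median-of-ratios scaling (-0.014), edgeR (-0.13) and another gene division (-0.014), and ranged from -0.0363 to 0.119 with 1 lung left out, turning without lung 1 and without lung 3. Lama5 in Agtr2-Penk-Dpep1-like cells ranged from -0.0486, without lung 3, to 0.276. Counts of all genes called moved by over 1.5 times with no filter on low values, which tests more genes, to 5050 in the epithelium, 5098 in the endothelium, 5109 in the mesenchyme and 5917 in immune cells, and to 274 between arterial-like and capillary cells, where 563 were called. The last count was 350 to 409 with 1 lung left out. Without the replicate block the counts were 2945 in the epithelium (3054 with it) and 437 between arterial-like and capillary cells, and none moved by over 1.5 times. It ended the calls of Lama4 (adjusted p 0.071) and Lamb1 (0.0746) in Agtr2-Penk-Dpep1-like cells and of Lama5 (0.0533) and Nid2 (0.0648) in arterial-like cells. When all 4 samples were clustered together, 59 genes in place of 128 lay at least 2-fold beyond the lungs in the Agtr2-Penk-Dpep1-like class and 334, about 3 times as many, in the matrix fibroblast-like class. At a limit of 10 CPM the trimers allowed numbered 6 in Agtr2-Penk-Dpep1-like, 4 in matrix fibroblast-like, 4 in pericyte-like, 2 in airway-like and 4 in capillary cells, and in the sort 2 in Agtr2-Penk-Dpep1-like, 2 in matrix fibroblast-like and 4 in pericyte-like cells. At 50 CPM they numbered 1 in Agtr2-Penk-Dpep1-like, 2 in myofibroblast-like, 1 in pericyte-like and 0 in AT2-like, airway-like, arterial-like and capillary cells, and 1 in sorted myofibroblast-like cells. Depth limits the α shares of the MHC class II-like, arterial-like and airway-like cells, which rest on 21, 75 and 93 UMIs.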

Other observations

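Some cells too few for a comparison also carried these genes. In the lungs the 32 mesothelium-marked cells (15, 1 and 16 per lung) had 129, 350 and 112 CPM of Lama5, the α5 chain. Within the macrophage or monocyte-like class, a cluster of 204 cells led by Pf4 and C1qa had 21.0, 16.4 and 18.8 CPM of Nid2, where the other 3 clusters of that name averaged 4.57 to 5.74 CPM. This cluster was singled out after its values were seen. In the E16.5 sort, also too few for a comparison, the 30 cells with epithelial markers had 96.1 CPM of Lama5 and 31.8 CPM of Lama3, and the 20 with endothelial markers had 180 CPM of Hspg2 and 75.5 CPM of Nid2.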
